A study of Rattus norvegicus with 17 samples.

Results

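The messages of the translation machinery were followed in endothelial cells of 4 kinds of rat vessel. The members are all array probes that have a value in the deposited value table and whose accession belongs to a ribosomal protein gene (symbols in Rpl or Rps), an initiation or elongation factor gene (Eif or Eef) or a cytosolic tRNA synthetase gene. The rule found 110 of the 9879 different probes in that table. One of them, named Rpl-1, is listed by RefSeq as a placental hormone gene and was set apart, which left 109 probes of 83 genes. They comprised 51 probes of 39 large subunit genes, 36 probes of 27 small subunit genes, 16 probes of 12 initiation factor genes, 3 elongation probes and 3 probes of 2 tRNA synthetase genes. Another 30 genes that fit the rule, among them Eef1a1, Rplp0 and Rpl3, have no value in the table and were not analysed here.

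Ribosomes are built from a large and a small subunit, each a scaffold of ribosomal RNA covered by many small proteins that are made in matched amounts. Initiation factors bring the small subunit to the capped end of a message and unwind it, elongation factors drive the ribosome along the coding sequence, and tRNA synthetases load tRNAs with their amino acids. In animals, messages of ribosomal proteins typically begin with a run of pyrimidines, the terminal oligopyrimidine tract, through which the growth-controlling kinase mTOR sets how often they are translated.

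The model was an arteriovenous fistula, a surgical joint of the superficial epigastric vein with the common femoral artery that models access for dialysis. By the labels, the vessels were removed 13 to 14 days after fistula surgery, or after ligation surgery for the venous-flow vein. The NIH vein group (n = 5) is epigastric vein under arterial flow that had neointimal hyperplasia (NIH), an ingrowth of the inner wall. The stenotic branch group (n = 3) is a narrowed side branch of that vein under arterial flow. The venous-flow vein group (n = 6) is a lesion-free stretch beyond a ligation, labelled with ligation surgery, and the femoral artery group (n = 3) is the lesion-free artery of the fistula. Endothelium was laser-captured, 10 captures were pooled for each RNA, and 50 ng of RNA was amplified for each array. In the sources used here, strain and age are not given. The 17 captured regions came from 6 rats to which the labels do not tie them, so that some arrays share an animal. It is not known whether the sharing lies within groups or between them, so p-values over arrays may be too small or too large. The p-values measure only the spread between arrays. Whether a lower level means fewer ribosome-rich cells in a capture or less message per cell cannot be told apart.

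Sequence around the start of the member genes was compared with that of all rat genes, since a shared start sequence is what marks this gene class. RefSeq promoters of the GRCr8 build, from 250 bases before to 50 bases after each start, were found for 65 of the 83 genes. An unbroken run of at least 8 C or T was sought within 25 bases on either side of the start, on the sense strand. That strand reads as the message does. Such a run was present in 23 of 30 large subunit genes (76.7%) and 18 of 21 small subunit genes (85.7%). The same run was found in 1 of 10 initiation factor genes (10.0%) and in 21.2% of the 27457 rat symbols with a promoter. The letters CGGAAG, searched on both strands of the whole window, stood in 13 of 30 large subunit genes (43.3%), 13 of 21 small subunit genes (61.9%) and 5 of 10 initiation factor genes (50.0%), against 18.2% of all symbols. The letters AAGATGG, also on both strands, were present in 12.3% of members and 7.77% of all symbols. TATAA on the sense strand was present in 21.5% of members and 19.8% of all symbols. A match describes the sequence only.

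The stretches below run from 100 bases before to 20 bases after the start for the 3 ribosomal genes that passed a test and have a promoter in the table (Rps2, Rpl31 and Rps26), for 2 whose probes behaved differently on a pair of arrays (Rpl13a and Rpl23) and for the helicase gene Eif4a1, which has no such run. They lie at chr10:14251748-14251867 on the plus strand (Rps2), chr9:49143011-49143130 on the plus strand (Rpl31), chr7:1643385-1643504 on the minus strand (Rps26), chr1:104748894-104749013 on the minus strand (Rpl13a), chr10:83272165-83272284 on the minus strand (Rpl23) and chr10:54888583-54888702 on the minus strand (Eif4a1). Capitals mark runs of at least 8 pyrimidines within 25 bases on either side of the start; runs farther from it are in lower case.
Rps2: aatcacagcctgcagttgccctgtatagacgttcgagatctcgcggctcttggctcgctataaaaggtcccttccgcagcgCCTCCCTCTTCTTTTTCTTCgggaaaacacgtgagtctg
Rpl31: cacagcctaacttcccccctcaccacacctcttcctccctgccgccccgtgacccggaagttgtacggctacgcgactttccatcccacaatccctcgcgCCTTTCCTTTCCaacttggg
Rps26: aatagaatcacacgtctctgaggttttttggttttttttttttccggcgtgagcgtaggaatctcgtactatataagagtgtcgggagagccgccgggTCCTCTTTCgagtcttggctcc
Rpl13a: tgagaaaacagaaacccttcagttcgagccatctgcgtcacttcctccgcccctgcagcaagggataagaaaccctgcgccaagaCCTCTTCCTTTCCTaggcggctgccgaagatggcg
Rpl23: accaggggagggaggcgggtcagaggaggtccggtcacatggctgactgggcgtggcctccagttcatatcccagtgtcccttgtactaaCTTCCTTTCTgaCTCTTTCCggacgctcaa
Eif4a1: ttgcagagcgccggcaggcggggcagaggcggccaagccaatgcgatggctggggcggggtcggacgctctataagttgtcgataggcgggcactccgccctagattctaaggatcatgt
The run of Rpl31 begins exactly at the annotated start, those of Rps2 and Rps26 reach across or up to it, that of Rpl13a ends just before it, and Rpl23 has one on each side.

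The series was deposited in 2 forms that disagree on which array belongs to which sample. The scanner output of the 5 NIH vein arrays matches the NIH vein columns of the value table in rank order, but that of the other 12 arrays matches columns of other groups: stenotic branch and femoral artery arrays match venous-flow vein columns, and venous-flow vein arrays match stenotic branch or femoral artery columns. Which form is right cannot be told from the files, so each comparison is given in both, scanner output first. Comparing the NIH vein with the other 12 arrays together does not depend on it. Levels are log2 intensities after background correction and quantile normalization, with a floor of 5.65 and a median of 6.12 over all probes, and 28 of the 109 member probes had a mean within 0.5 of that floor. The median difference of signal and background over the probes of the table was between 28.5 and 80.9 intensity units per array, and over the members between 31.6 (femoral artery 1) and 248 (NIH vein 5). On 11 arrays, among them all 3 of the femoral artery, the background listed for every spot equals the mean of the backgrounds of 2 other arrays. On each of these arrays, at least 92.7% of the signals of gene spots outside the value table also equal such a mean. Those spots were not used, and no member signal was filled in that way. What the filling means for low levels and for the scanner output as a whole was not tested.

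A pair of arrays, NIH vein 1 and stenotic branch 3 in the scanner output, stood apart in a way that affects many ribosomal protein probes. On both, 10 member probes that lay more than 2 above the floor on all other 15 arrays were at the floor. Among them are probes of Rpl13a, Rpl35, Rpl14, Rpl23, Rpl31 and Rpl36al1 in the large subunit and of Rps2, Rps6 and Rps27a in the small subunit. For Rpl13a, a large subunit protein also known for a part in the inflammatory silencing of messages, the level was 5.87 on NIH vein 1 and 5.97 on stenotic branch 3, against 11.66 to 14.78 on the other arrays. For Rps6, the ribosomal substrate of the S6 kinases, it was 5.87 on both arrays, against 10.00 to 12.64. These 10 probes are 32.3% of the 31 members that high on the other arrays. Over all probes of the table the count was 88 of 315 (27.9%), and no other pair of arrays had a single such probe.

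**Figure D1:**
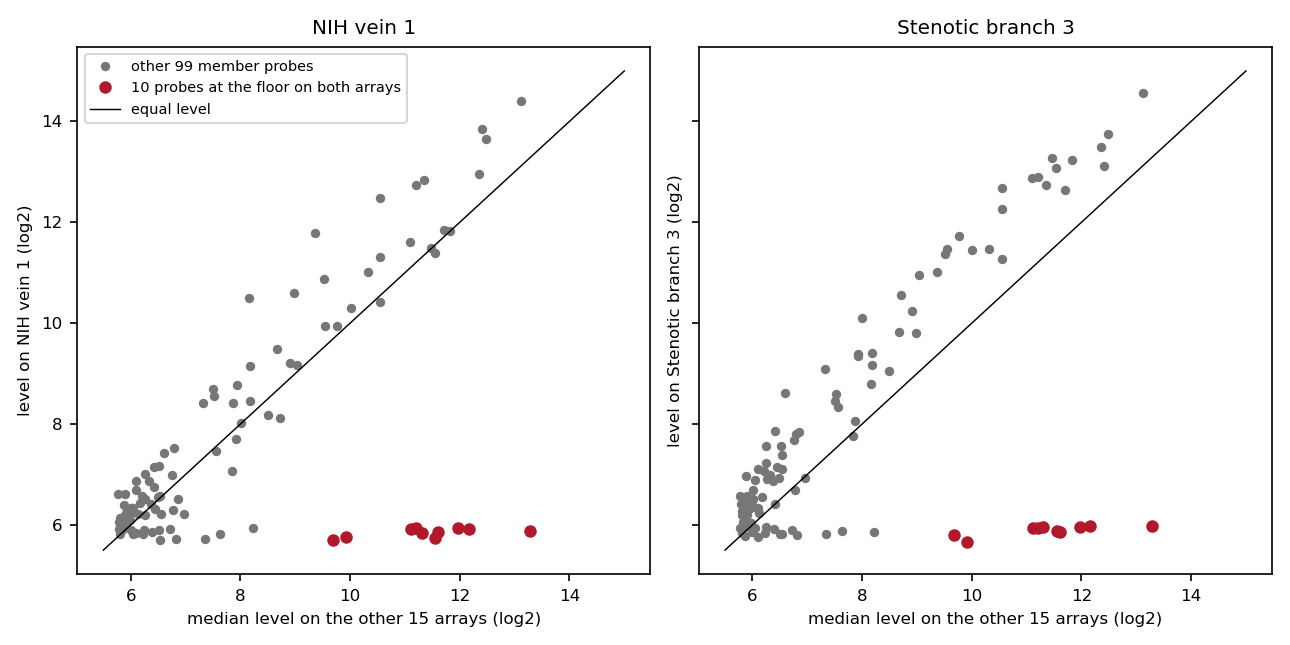
Level of each of the 109 member probes (log2) on NIH vein 1 (left) and stenotic branch 3 (right) against its median over the other 15 arrays (log2); the line marks equal levels. The 10 probes in red lie at the floor on both arrays and between 9.68 and 13.28 in the median of the others.

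For 3 of these genes, the brightest probe was not low on this pair. Rps2 probe 2 was at 5.91 on NIH vein 1 and 5.97 on stenotic branch 3, where Rps2 probe 1 was at 12.84 and 12.74 (probes of a gene are numbered by falling mean level). For Rpl31, probe 2 was at 5.76 and 5.67 while probe 1 was at 12.48 and 12.27, and for Rpl36al1, probe 2 was at 5.70 and 5.80 while probe 1 was at 11.01 and 11.47. The dim Rpl31 probe 3 was also below all others there, at 5.86 and 5.92 against 6.22 or more. Over the 109 member probes the correlation between both arrays was 0.967, their correlations with other arrays ran from 0.587 to 0.682, and those among the other 15 arrays ran from 0.925 to 0.996. In the value table, these arrays carry the labels NIH vein 1 and venous-flow vein 3. What sets them apart was not tested.

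**Figure D2:**
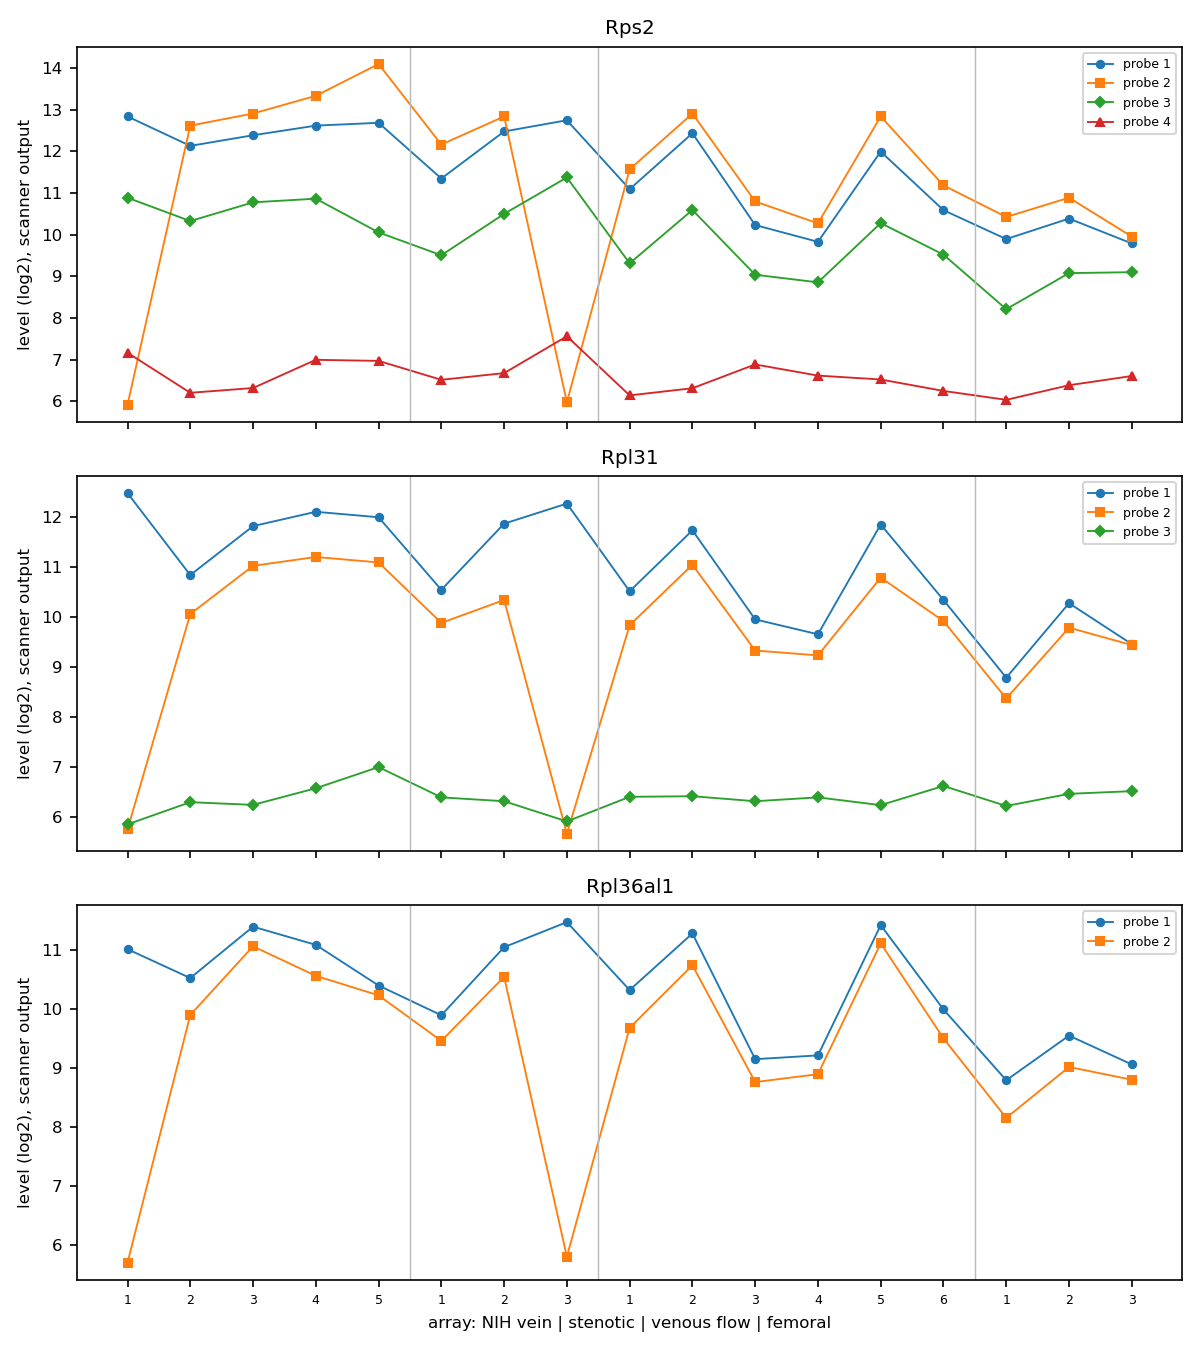
Levels (log2, scanner output) of all probes of Rps2, Rpl31 and Rpl36al1 on the 17 arrays in the order NIH vein 1 to 5, stenotic branch 1 to 3, venous-flow vein 1 to 6 and femoral artery 1 to 3, with grey lines between groups. Probes 1 and 2 of each gene rise and fall together except on NIH vein 1 and stenotic branch 3, where probe 2 drops to the floor.

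Without this pair, probes 1 and 2 of these genes moved together closely. Across 17 arrays, probes 1 and 2 had correlations of 0.10 for Rps2, -0.02 for Rpl31 and 0.19 for Rpl36al1. Across the other 15 they were 0.98, 0.97 and 0.99, and Rps2 probes 1 and 3 had 0.93 either way. These are descriptions across arrays of 4 groups that share the group differences.

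The question put to each pair of groups was whether members of the translation machinery differ in level. In the scanner output, members were called only when NIH vein or stenotic branch was set against femoral artery (limma, Benjamini-Hochberg over 9879 probes, adjusted p under 0.05). NIH vein was higher than femoral artery for 5 of the 109 member probes and lower for none, which is 4.59% of members where 2.32% of all probes were called (1.56% higher and 0.759% lower). They were Rps2 probes 1 and 3, Rps26, Rpl31 probe 1 and Eif4ebp1 probe 1. Stenotic branch was higher than femoral artery for 1 member, Rps26, or 0.917% of members against 1.86% of all probes (1.19% higher and 0.668% lower). No member was called in either comparison in the value table, where the shares over all probes were 0% and 0.192%; 9 members (8.26%, against 10.8% of all probes) and 2 members (1.83%, against 4.39%) had an unadjusted p under 0.05.

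Against the venous-flow vein, no member was called in the NIH vein, where 0.0405% of all probes were (0.0304% higher, 0.0101% lower), in the stenotic branch (0.405% of all probes; 0.385% higher, 0.0202% lower) or in the femoral artery (0%). None was called for stenotic branch minus NIH vein either (0.0911% of all probes, 0.0810% higher and 0.0101% lower). Unadjusted p-values under 0.05 were held by 21 members (19.3%, against 16.2% of all probes) for NIH vein minus venous-flow vein and by 29 (26.6%, against 17.2%) for stenotic branch minus venous-flow vein. Among probes at least 0.5 above the floor the shares were 22.2% of 81 members and 22.2% of 4989 table probes in the first comparison, and 22.2% and 20.3% in the second. Over all members again, such p-values were held by 8 (7.34%, against 4.92%) for femoral artery minus venous-flow vein and by 3 (2.75%, against 3.59%) for stenotic branch minus NIH vein. In the value table, again with no member called, 11 members had an unadjusted p under 0.05 for NIH vein minus venous-flow vein, where 6.30% of all probes did and 0% were called. For stenotic branch minus venous-flow vein there were 4 (6.32% of all probes, 0.172% called), for stenotic branch minus NIH vein 4 (7.24% of all probes, 0.283% called, 0.233% higher and 0.0506% lower) and for femoral artery minus venous-flow vein 2 (1.61% of all probes, 0% called). The moderated F test for any difference among the 4 groups called 3 members (2.75%, against 2.18% of all probes), namely Eif4ebp1 probe 1 (adjusted p = 0.0321), Rps26 (0.0394) and Rps2 probe 1 (0.0399).

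Most members lay higher in the NIH vein than in the artery, by small amounts. The difference was above 0 for 86 of 109 probes with a median of 0.26 on the log2 scale, where 53% of all probes were above 0 with a median of 0.02. The value table gave 87 of 109 and a median of 0.25, against 59.4% of all probes. Without the pair of arrays that stand apart, 91 of 109 members were above 0 in the scanner output and 4 were called, where 2.20% of all probes were. For NIH vein minus venous-flow vein, 80 of 109 members were above 0 (median 0.16, against 0.03 over all probes), and the value table gave 74 of 109 (median 0.14). For stenotic branch minus venous-flow vein the counts were 75 of 109 (median 0.21) in the scanner output and 57 of 109 (median 0.03) in the value table. For stenotic branch minus NIH vein they were 60 of 109 (median 0.03) and 38 of 109 (median -0.11), so that the direction turned with the form. For stenotic branch minus femoral artery, 75 of 109 (median 0.21) and 73 of 109 (median 0.17) were above 0. For femoral artery minus venous-flow vein, 41 of 109 (median -0.06) and 33 of 109 (median -0.16) were above 0. The comparisons share groups, so these counts are not independent of each other. Except for NIH vein minus femoral artery with all arrays, the share of all probes above 0 is not given beside them. These other counts therefore do not show a shift particular to the members.

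**Figure D3:**
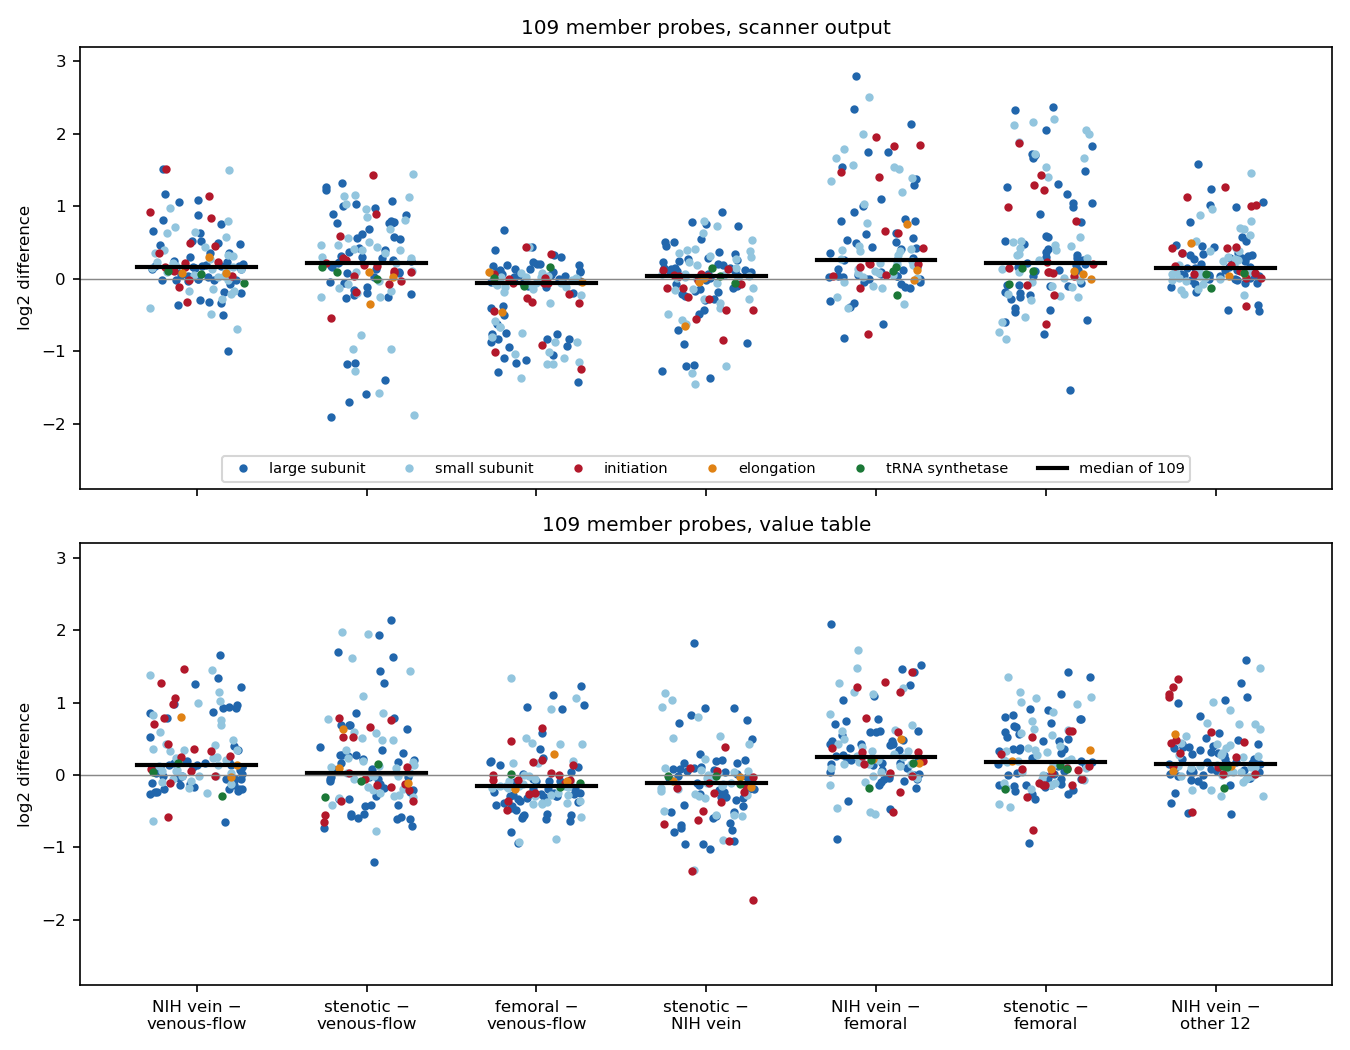
Difference in level (log2) of each of the 109 member probes in 7 comparisons, from the scanner output (top) and the value table (bottom), coloured by role; bars mark medians. The median for NIH vein minus femoral artery is 0.26 and 0.25 in the 2 forms, and that for stenotic branch minus NIH vein is 0.03 and -0.11.

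The NIH vein against the other 12 arrays together is the comparison in which both forms hold the same arrays on each side. No member was called in either form (0.132% and 0.0911% of all probes), and 13 members (11.9%, against 12.5% and 12.7% of all probes) had an unadjusted p under 0.05 in each. The difference was above 0 for 88 of 109 members with a median of 0.14 in the scanner output, and for 87 of 109 with a median of 0.16 in the value table, where 54.3% and 54.0% of all probes were above 0. By role, 39 of 51 large subunit probes, 29 of 36 small subunit probes, 15 of 16 initiation probes, 3 of 3 elongation probes and 2 of 3 synthetase probes were higher in the NIH vein in the scanner output. Without the pair of arrays, 96 of 109 members were. The largest differences upward were those of Rplp1, an acidic protein of the ribosomal stalk, at 1.58 ± 0.63 (SE; limma adjusted p = 0.366), and Rps2 probe 1 at 1.47 ± 0.49 (adjusted p = 0.363). The Rpl13a probe had -0.43 ± 1.35 (adjusted p = 0.924), and 0.53 without the pair of arrays on which it lies at the floor.

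Among large subunit proteins, the called probe was Rpl31 probe 1. Rpl31 sits beside the exit of the tunnel through which the new chain leaves the ribosome. Its level was 12.48, 10.84, 11.82, 12.10 and 11.99 on NIH vein 1 to 5, 10.54, 11.87 and 12.27 on stenotic branch 1 to 3, between 9.65 and 11.85 with a median of 10.43 on the 6 venous-flow vein arrays, and 8.79, 10.28 and 9.46 on femoral artery 1 to 3. Every NIH vein array lay above every femoral artery array, and the venous-flow vein overlapped both groups. The NIH vein exceeded the femoral artery by 2.34 ± 0.56 (SE; limma adjusted p = 0.0451), a 5.06-fold difference. The call was lost without the pair of arrays that stand apart (2.22, adjusted p = 0.0722) and, of the arrays left out singly, without femoral artery 1 (1.98, adjusted p = 0.175) or 3 (2.31, 0.0966), NIH vein 1 (2.18, 0.0873), 3 (2.35, 0.0798) or 4 (2.27, 0.099), stenotic branch 2 (adjusted p = 0.0633), or venous-flow vein 1 (0.0637) or 6 (0.0596). The value table gave 1.42 (adjusted p = 0.495). Rpl31 probe 2 exceeded by 1.68 ± 0.49 without that pair (adjusted p = 0.0864), and probe 3, whose levels ran from 5.86 to 7.001, differed by -0.01.

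Rplp1 showed the largest difference of any member between NIH vein and femoral artery without being called, 2.81 ± 0.73 (limma adjusted p = 0.058). Its level was 14.40, 13.23, 14.78, 14.57 and 14.90 on NIH vein 1 to 5, 13.12, 13.99 and 14.57 on the stenotic branch arrays, between 11.37 and 15.34 with a median of 12.46 on the venous-flow vein, and 11.67, 12.34 and 10.70 on the femoral artery. The NIH vein and femoral artery arrays did not overlap, while the venous-flow vein spanned almost the whole range. Rpl10 probe 1, a protein that joins the large subunit late in its maturation, had 2.14 ± 0.56 (adjusted p = 0.058). Rpl8, which lies close to the peptidyl transferase centre, had 1.75 ± 0.46 (adjusted p = 0.0584). Over the 51 large subunit probes, 38 were higher in NIH vein than in femoral artery, 9 of them with an unadjusted p under 0.05 (17.6%, against 24.8% of all probes), and the median was 0.26.

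In other comparisons, large subunit members were named by size alone. Stenotic branch minus femoral artery gave 2.37 ± 0.63 for Rpl10 probe 1 (limma adjusted p = 0.066) and 2.32 ± 0.82 for Rplp1 (0.13). Rplp1 gave 1.51 ± 0.61 for NIH vein minus venous-flow vein (0.235). Rpl37al2, by its symbol a copy of a large subunit gene, gave 0.92 ± 0.35 for stenotic branch minus NIH vein (adjusted p = 1), 0.50 without the pair of arrays and 0.085 in the value table. Rpl10a gave 0.67 ± 0.44 for femoral artery minus venous-flow vein (0.863) but -0.94 in the value table. Differences of Rpl13a turned with the pair of arrays: it gave -1.91 ± 1.84 for stenotic branch minus venous-flow vein and 0.70 without the pair. Rpl23 gave -1.37 for stenotic branch minus NIH vein and -0.80 without the pair, and -1.43 and -1.45 for femoral artery minus venous-flow vein.

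Among small subunit proteins, Rps2 and Rps26 were called. Rps2 lines the channel by which the message enters the ribosome, and Rps26 contacts the message where it leaves. Rps2 probe 1 had levels of 12.84, 12.13, 12.38, 12.62 and 12.68 on NIH vein 1 to 5, 11.35, 12.48 and 12.74 on stenotic branch 1 to 3, between 9.83 and 12.43 with a median of 10.84 on the venous-flow vein, and 9.89, 10.38 and 9.79 on femoral artery 1 to 3. All NIH vein arrays were above all femoral artery arrays, while the venous-flow vein reached from the femoral artery range into that of the NIH vein. The difference was 2.51 ± 0.50 (SE; limma adjusted p = 0.0214), or 5.69-fold. Rps2 probe 3 lay between 10.05 and 10.88 in the NIH vein and at 8.21, 9.07 and 9.10 in the femoral artery, again without overlap, a difference of 1.79 ± 0.44 (limma adjusted p = 0.0494) or 3.45-fold, and 1.12 in the value table (adjusted p = 0.505).

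Rps2 probe 2, one of the probes at the floor on NIH vein 1, joined them when the pair of arrays was left out, at 2.84 ± 0.61 (limma adjusted p = 0.0475). Rps2 probe 1 kept its call there (2.46, 0.0477), while probe 3 lost it (1.76, 0.0592). Probe 4, with levels from 6.03 to 7.56, differed by 0.39 over all arrays. Leaving out femoral artery 1 ended the call of Rps2 probe 1 (2.44, adjusted p = 0.146), and so did leaving out femoral artery 3 (2.39, 0.0669) or NIH vein 4 (2.49, 0.0627). Probe 3 lost its call without any of these (adjusted p from 0.08 to 0.189) and also without femoral artery 2 (0.0611), NIH vein 1 (0.0918) or 3 (0.0904), stenotic branch 2 (0.0694), or venous-flow vein 1 (0.0675) or 6 (0.0659).

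By the value table, Rps2 probe 1 lay between 12.12 and 12.83 in the NIH vein and at 12.42, 10.19 and 9.78 in the femoral artery, so that the groups overlapped. Its difference there was 1.72 (adjusted p = 0.449). One array accounts for the overlap: the column labelled femoral artery 1 matches the scanner output labelled venous-flow vein 2.

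Rps26 had levels of 9.21, 8.90, 9.43, 9.41 and 9.36 on NIH vein 1 to 5, 9.09, 9.59 and 10.23 on stenotic branch 1 to 3, between 8.36 and 9.28 with a median of 8.79 on the venous-flow vein, and 7.93, 8.47 and 8.30 on the femoral artery. Both arterialised vein groups lay above the femoral artery on every array. The difference was 1.03 ± 0.24 for NIH vein minus femoral artery (limma adjusted p = 0.0449; 2.04-fold) and 1.40 ± 0.27 for stenotic branch minus femoral artery (0.0252; 2.65-fold). Without the pair of arrays these were 1.05 (adjusted p = 0.0475) and 1.12 (0.0964). Without femoral artery 1 they were 0.87 (0.173) and 1.25 (0.121), and without femoral artery 3 they were 1.06 (0.0868) and 1.44 (0.059). The first call was also lost without NIH vein 1 (adjusted p = 0.073), 3 (0.0866) or 4 (0.099), stenotic branch 2 (0.0642), or venous-flow vein 1 (0.0637) or 6 (0.0621), and the second without stenotic branch 2 (0.0737) or 3 (0.11). The value table gave 0.61 and 0.28. The gene has a close copy among the members, Rps26-ps13, and how the probes divide their signal is uncertain.

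**Figure D4:**
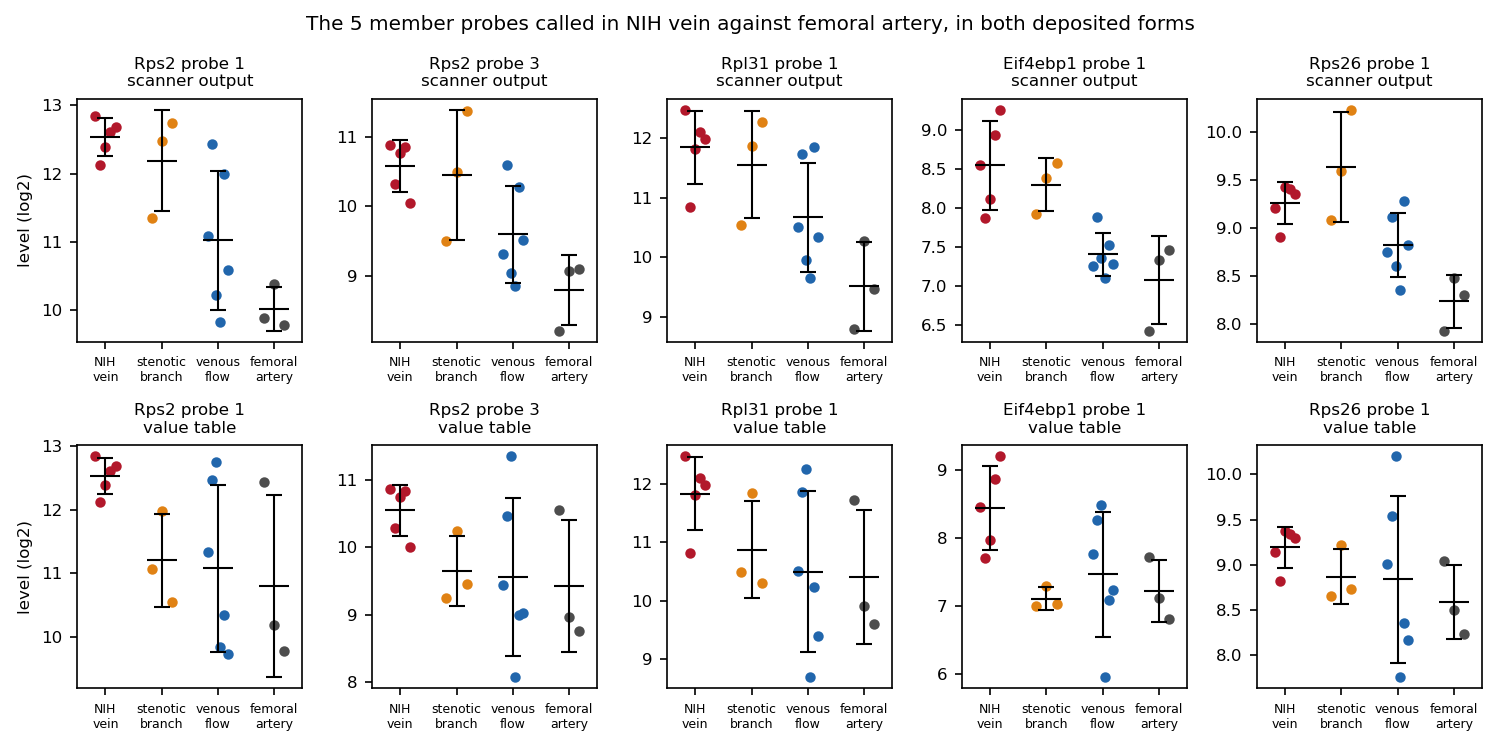
Levels (log2) of the 5 member probes called for NIH vein minus femoral artery, by group, in the scanner output (top) and the value table (bottom); points are arrays, bars mean ± SD. In the scanner output the femoral artery lies below every NIH vein array; in the value table its highest array reaches 12.42 for Rps2 probe 1, inside the NIH vein range.

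Over the 36 small subunit probes, 30 were higher in NIH vein than in femoral artery and 12 had an unadjusted p under 0.05 (33.3%, against 24.8% of all probes), with a median of 0.30. Of the 81 members at least 0.5 above the floor, 35.8% had such a p, against 37.2% of the 4989 table probes of that kind. Rps12 probe 1 gave -1.37 ± 0.70 for femoral artery minus venous-flow vein (adjusted p = 0.863), with 10.60, 11.99 and 10.47 against 10.50 to 14.09. Rps27a, a ribosomal protein made as a fusion with ubiquitin, gave -0.69 ± 1.16 for NIH vein minus venous-flow vein and 0.49 without the pair of arrays. For stenotic branch minus venous-flow vein it gave -1.89, and -0.16 without the pair. Rps18 gave -0.83 ± 0.62 for stenotic branch minus femoral artery, -0.33 without the pair, and 0.34 in the value table.

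Of the 16 initiation factor probes, 14 were higher in NIH vein than in femoral artery (median 0.33) and 9 had an unadjusted p under 0.05 (56.2%, where all probes had 24.8%). Of these probes, 11 lay at least 0.5 above the floor, and the share over table probes of that kind was higher than 24.8%, as given above. The called probe was Eif4ebp1 probe 1. Eif4ebp1 encodes 4E-BP1, which holds the cap-binding factor eIF4E until mTOR phosphorylates it. Its level was 8.56, 7.87, 8.12, 8.95 and 9.26 on NIH vein 1 to 5, 7.93, 8.39 and 8.59 on stenotic branch 1 to 3, between 7.11 and 7.89 with a median of 7.33 on the venous-flow vein, and 6.43, 7.34 and 7.47 on the femoral artery. Apart from NIH vein 2, which was just below the highest venous-flow vein array, the NIH vein and stenotic branch arrays lay above all others in the scanner output. In the value table the stenotic branch was at 6.995, 7.29 and 7.03 and the venous-flow vein reached 8.48, a difference of -0.36.

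The difference for Eif4ebp1 probe 1 was 1.47 ± 0.31 (SE; limma adjusted p = 0.0279; 2.78-fold) and stayed called without the pair of arrays (1.46, 0.0482), but not without femoral artery 1 (1.15, 0.156), femoral artery 3 (1.67, 0.0597) or NIH vein 4 (1.38, 0.0723). The value table gave 1.22 (adjusted p = 0.449). Eif4ebp1 probe 2, with levels from 5.89 to 6.60, differed by -0.12. For NIH vein minus venous-flow vein, probe 1 gave 1.14 ± 0.26 and the smallest adjusted p of any member (limma, 0.0902).

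Eif4a1 encodes an eIF4A helicase, which unwinds the start of messages, and Eif4h encodes a helper of these helicases. Eif4a1 probe 1 and Eif4h also had higher means in the NIH vein without being called. Eif4a1 probe 1 was at 11.80, 9.39, 9.75, 10.997 and 10.36 on NIH vein 1 to 5, at 9.41, 10.72 and 11.01 on the stenotic branch, between 8.46 and 9.91 with a median of 8.68 on the venous-flow vein, and at 7.40, 9.23 and 8.89 on the femoral artery. It differed from the venous-flow vein by 1.51 ± 0.47 in the NIH vein (limma adjusted p = 0.162) and by 1.44 ± 0.55 in the stenotic branch (0.208), but the value table gave 1.07 and -0.65. Against the femoral artery the NIH vein had 1.95 ± 0.57 (0.0745). Eif4h had 1.85 ± 0.47 (0.0514), with 9.08 to 10.60 in the NIH vein and 7.32 to 8.42 in the femoral artery.

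The 2 probes of Eif4a1 ran against each other. Probe 2 was lower in the NIH vein, where its difference from the femoral artery was -0.76 ± 0.29 (limma adjusted p = 0.139), and its highest level, 7.75, was on femoral artery 1, where probe 1 had its lowest, 7.40. Across the 17 arrays their correlation was -0.75, and -0.75 again without the pair of arrays. Which transcripts each probe reads was not tested.

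Other initiation factors spread widely within groups. Eif5a, whose product carries the modified residue hypusine and eases difficult peptide bonds, ran from 6.35 to 9.50 within the NIH vein. Eif2s2, the beta subunit of the factor that delivers the initiator tRNA, was at 6.25 on femoral artery 1 by probe 1 and between 7.59 and 9.53 on the other 16 arrays. Eif4e, the cap-binding factor itself, lay between 5.79 and 7.17 on all arrays. Eif6 and Eif4ebp2 had means within 0.5 of the floor.

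Elongation factors and tRNA synthetases gave little to compare. Eef1d, a subunit of the factor that recharges eEF1A, was at 8.29 ± 0.26 (SD, n = 5) in the NIH vein, 7.64 ± 0.39 (n = 3) in the stenotic branch, 7.99 ± 0.38 (n = 6) in the venous-flow vein and 7.53 ± 0.52 (n = 3) in the femoral artery. It exceeded the femoral artery by 0.76 in the NIH vein (limma adjusted p = 0.103) and was not called. Eef2, the translocase, and Eef2k, the kinase that inhibits it, stayed within 5.68 and 6.16 on all arrays, and the probes of Wars1 and Nars1, the tryptophan and asparagine tRNA synthetases, within 5.78 and 6.36, all close to the floor.

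Agreement among probes of one gene could be checked for 23 genes. Ribosomal protein genes have many near-identical copies, and the members include 7 that are copies by their symbols (Rps26-ps13, Rplp0l1, Rplp1l1, Rpl15l2, Rpl37l1, Rpl37al2 and Rpl36al1), so that which copy a probe reads is uncertain. For NIH vein minus femoral artery all probes shared a sign in 15 of them, for NIH vein minus the other 12 arrays in 17, and in the other comparisons in 11 to 15. Among the 15 genes with no probe near the floor the counts were 11 and 12, and 6 to 10 in the other comparisons. The median spread between the highest and lowest probe of a gene was 1.11 for NIH vein minus femoral artery, larger than the median difference of the members. In the value table the counts ran from 11 to 17 of 23. Rps2 was higher in NIH vein than in femoral artery with 4 of 4 probes, by 0.39 to 2.51. The 2 probes each of Rpl29 (0.50 and 0.61) and Rpsa (0.40 and 0.41) agreed closely, with correlations across 17 arrays of 0.95 and 0.95. Without NIH vein 1 and stenotic branch 3 the correlations were 0.93 and 0.90. Both Rpsa probes had means within 0.5 of the floor and were above all other arrays on that pair. Probes of Rpl17 had -0.13 and 1.38, and a correlation of -0.13.

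Member levels moved together from array to array. Over the 81 member probes at least 0.5 above the floor and the 15 arrays without the pair, the first principal component held 69.6% of the variance, and 68 of 81 probes had loadings of 1 sign. Scores were lowest on femoral artery 1 (-8.46), venous-flow vein 4 (-7.55), femoral artery 3 (-7.48) and venous-flow vein 3 (-5.04), and highest on venous-flow vein 5 (6.25), NIH vein 3 (5.61) and NIH vein 4 (5.46). The groups overlapped: venous-flow vein 2 (4.62) scored within the NIH vein range of 1.49 to 5.61, and venous-flow vein 5 above it. Femoral artery 1 and venous-flow vein 3 were also the arrays with the lowest median signal over background among members (31.6 and 42.2 intensity units). The part of array brightness in these scores was not tested.

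As a level per array, the median deviation of the 81 probes from their own medians was 0.03, -0.03, 0.13, 0.38 and 0.61 on NIH vein 1 to 5 and 0.00, 0.34 and 0.72 on stenotic branch 1 to 3. It was between -0.40 and 0.17 on the venous-flow vein, and -0.66, -0.05 and -0.24 on the femoral artery. With the labels of the value table, the stenotic branch held 0.00, 0.21 and -0.01, the venous-flow vein -0.72 to 0.82 and the femoral artery 0.14, -0.47 and -0.43. The NIH vein kept the same place in both, and the spread of the venous-flow vein was wider in the value table.

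**Figure D5:**
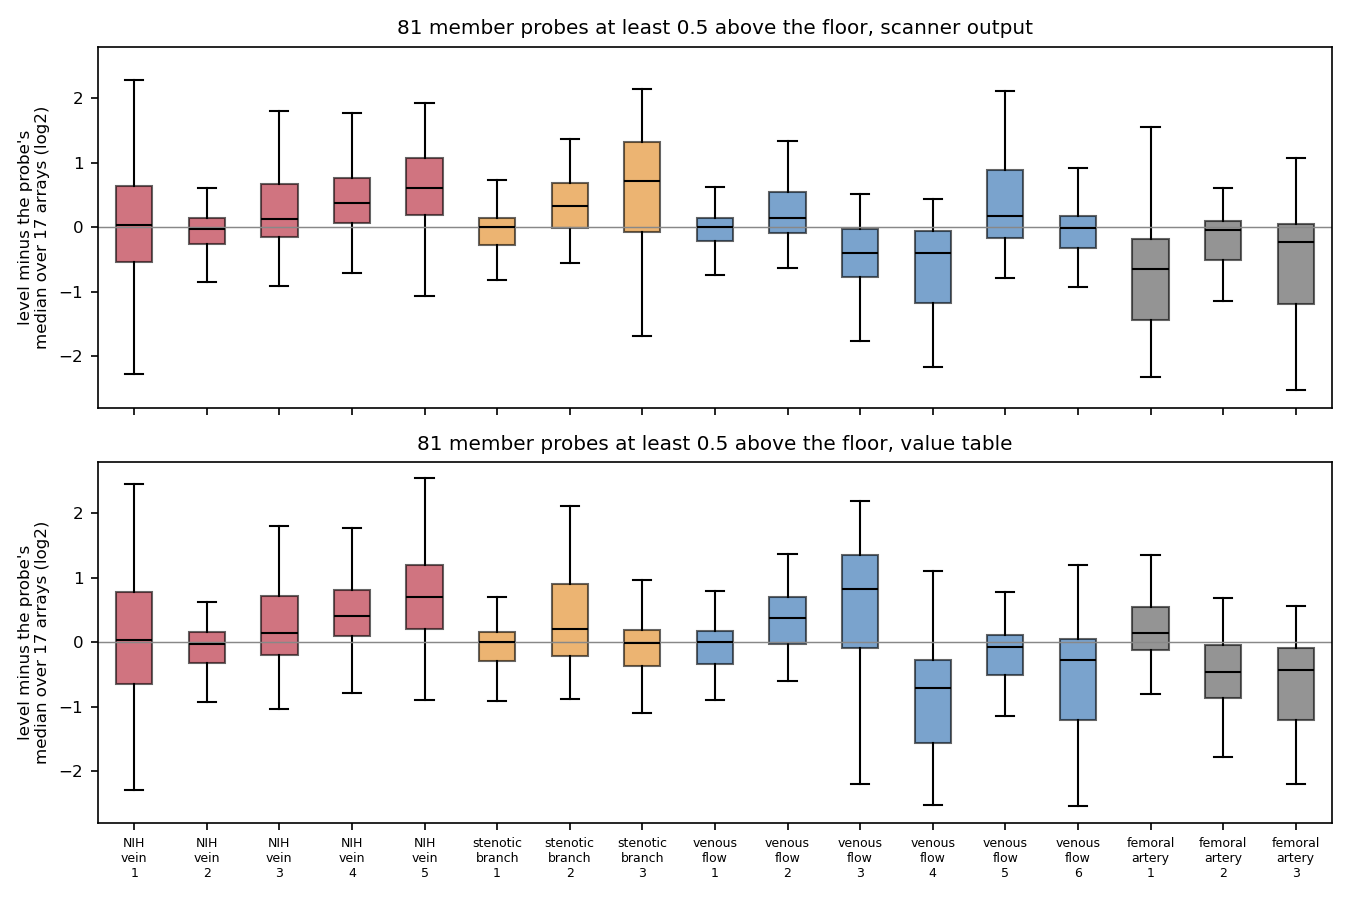
Level minus the probe's own median over 17 arrays (log2) for the 81 member probes at least 0.5 above the floor, per array, in the scanner output (top) and the value table (bottom); boxes span the quartiles with the median as a line, whiskers reach 1.5 times that span. NIH vein medians run from -0.03 to 0.61 and femoral artery medians from -0.66 to -0.05 in the scanner output.

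Genes that act beside the members were read from 4 lists. Of the 14 measured ribosome biogenesis genes, 11 were higher in NIH vein than in femoral artery (median 0.36), where 53% of all probes were. Against the other 12 arrays, 12 were higher (median 0.22), where 54.3% of all probes were. By limma, 0 were called in any comparison. Of the 14 probes, 7 lay near the floor, and whether they differ as a set from all probes was not tested. Fbl, which methylates ribosomal RNA, gave 1.38 ± 0.39 (adjusted p = 0.0708), Gnl3, a nucleolar GTPase, 1.12 ± 0.36 (0.0849) and Polr1c, a subunit of RNA polymerases I and III, 1.06 ± 0.30 (0.0745) for NIH vein minus femoral artery. Of 8 measured genes (12 probes) of termination, nascent chain and mRNA binding none was called, and Pabpc1, the poly(A)-binding protein, gave 1.43 ± 0.43 (0.0767). Of 22 listed genes of mTOR control only Lamtor1, Lamtor3 and Rps6kb1 were measured, and none was called.

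In the integrated stress response, the pathway that limits initiation through eIF2, 7 genes were measured and 1 was called. Phgdh, the first enzyme of serine synthesis, was higher in the stenotic branch than in the venous-flow vein by 0.76 ± 0.14 (limma adjusted p = 0.032; 0.405% of all probes were called) and than in the femoral artery by 0.73 ± 0.17 (0.0386; 1.86%). The value table gave -0.60 and -0.037. Atf4, its central transcription factor, gave -0.69 ± 0.64 for stenotic branch minus venous-flow vein (adjusted p = 0.594) and 1.14 in the value table. Atf5 gave -3.28 ± 1.05 (0.152) and 1.91.

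Markers of cell types were sparse among the probes of the table. Of 14 endothelial markers only Kdr was measured, with levels of 6.50 to 7.34 in the NIH vein, 7.31 to 8.91 in the stenotic branch, 5.83 to 7.74 in the venous-flow vein and 5.87 to 6.29 in the femoral artery, so the endothelial label was hardly checked. It was called for stenotic branch minus femoral artery (1.95, limma adjusted p = 0.0465), and 0.72 in the value table. Of fibroblast markers, 3 of 8 genes (4 probes) were measured, and their mean level ran from 8.13 to 9.79 in the NIH vein, 8.58 to 9.46 in the stenotic branch, 7.74 to 9.24 in the venous-flow vein and 6.98 to 7.99 in the femoral artery. Col1a2, a fibrillar collagen chain, was called for NIH vein minus femoral artery at 4.28 ± 0.74 (limma adjusted p = 0.016), the comparison in which most members were called, and 1.79 in the value table. It was also called for stenotic branch minus femoral artery at 4.39 (0.0243), and -0.58 in the value table. For the myeloid markers (5 of 12 genes), the mean level per array ran from 6.20 to 6.69 in the NIH vein and 6.98 to 7.62 in the stenotic branch. It ran from 6.10 to 6.87 in the venous-flow vein and 6.54 to 6.70 in the femoral artery. The stenotic branch exceeded the venous-flow vein for Tyrobp, a myeloid signalling adaptor (2.22, limma adjusted p = 0.00749), and C5ar1, a complement receptor (1.98, 0.0266). Tyrobp was also called against the NIH vein (2.18, 0.0341), and both against the femoral artery (2.11, 0.0243, and 1.85, 0.0359). All 5 of these called differences were below 0 in the value table, from -1.44 to -0.057. The other measured myeloid markers were not called. Over the 5 myeloid probes, the stenotic branch was higher for 4 and lower for 1 against the venous-flow vein (median 0.30). Against the NIH vein the counts were also 4 and 1 (median 0.33), and against the femoral artery 3 and 2 (median 0.06). The mean level per array of the smooth muscle markers (3 of 10) stayed between 5.81 and 6.40. That of the red cell and platelet markers (6 of 10) stayed between 5.89 and 7.55, and single markers can lie outside these means. The lymphocyte marker Cd3d (1 of 9) lay between 5.94 and 7.01, and no fat cell marker was measured. The part of other cell types in the differences of the members was not tested.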

How the data were processed

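Endothelium was laser-captured from frozen sections 10 µm thick, and its RNA was labelled with Cy5 and read on single-colour arrays of 41372 gene spots, per the labels' protocols. The authors deposited scanner output, in intensity units of mean signal and background per the file headers, and a value table of 10000 spots (9879 probes). The deposited value table holds log2 values (checked by rank against the scanner output) whose sorted columns are equal across arrays to within 4.49e-05 on average, as after quantile normalization; its background correction is not stated in the labels. No saturation above 65000 units was found among members.

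From the scanner intensities of the table's spots, background was corrected by normexp (offset 50), log2 values were quantile normalized, spots of 1 probe were averaged, and limma 3.58.1 in R 4.3.3 was fitted to the 4 groups, with Benjamini-Hochberg adjustment over 9879 probes at 0.05. Probes were named by RefSeq accession, promoters were read with Python 3.11.15 and pandas 2.3.3, and figures were drawn with matplotlib 3.10.9. On simulated data for NIH vein minus femoral artery, 70% of 100 probes changed by 1 (log2) and 92% of 100 changed by 2 were recovered among 9879, with 7 false calls. The simulated noise was independent for each probe, without shared array differences, shared animals or arrays that stand apart. The changed probes were drawn at random from the whole table, so these rates do not carry over to the members. Alternatives were the value table, no background correction, an offset of 16, median scaling, the 4940 probes of higher mean level, a replicate block, fits of 2 groups alone and leaving out each array. Leaving out the pair of arrays that stand apart was added after seeing the data. Named members were the called ones and, per comparison, those with the largest differences in each direction; members named beside them, such as Eif4h, Rpl8, Eif5a and Eef1d, were chosen after their values were seen. The members and lists were chosen with earlier results of these data known. Results for 1 member gene are not reported here.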

Additional observations from a re-analysis of the deposited data

Results flagged for a closer look

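Of the named probes, 4 had 1 array far from the rest of the NIH vein group by Dixon's criterion, in each case NIH vein 1. The level of Rpl13a was 5.87 there and 12.43 on the nearest of the other 4 arrays, that of Rps27a 5.93 against 11.48, that of Rps2 probe 2 5.91 against 12.62 and that of Rpl23 5.84 against 12.18. These probes were also at the floor on stenotic branch 3. In the venous-flow vein, Rpl18 probe 2 was at 8.61 on array 4 and at 6.40 on the nearest other array, and at 8.38 on femoral artery 3. In all 42 groups of values were examined and 5 stood out. Chance alone marks about 1 in 20, but the count cannot be set against that rate. The probes were named for large differences, some of which rest on these same low levels, and 4 of the 5 flags come from 1 array.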

How the results depend on the processing

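For NIH vein minus femoral artery, the 5 called members became 0 in the value table with all arrays or without the same 2 arrays, 1 without background correction, 9 with offset 16, 1 with median scaling, 12 among the 4940 probes of higher mean level and 13 with the 2 groups alone. For stenotic branch minus femoral artery, the single call became 0 in both value table settings, with median scaling, with the 2 groups alone and without the pair of arrays, 2 with offset 16 and 5 among those 4940. The 3 calls for any difference became 0 in both value table settings, with median scaling and without the pair, and stenotic branch minus venous-flow vein gave 1 with the 2 groups alone. Leaving out 1 array at a time gave 0 to 11 members for NIH vein minus femoral artery (0 without NIH vein 4, femoral artery 1 or femoral artery 3, 11 without NIH vein 2), 0 to 13 for stenotic branch minus femoral artery (13 without stenotic branch 1), 0 to 7 for any difference, 0 to 3 for NIH vein minus venous-flow vein and 0 to 2 for stenotic branch minus venous-flow vein. The other comparisons called 0 members in every setting. Shares over all probes are not given here beside these counts, so they do not show a change particular to the members. The cause of these changes was not tested.

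Deviations of same-numbered arrays of different groups had correlations from -0.609 to 0.321 over 20 pairs. These cannot decide whether the numbers pair the arrays. The deviations were taken from means of small groups, include the pair of arrays that stand apart and rest on the disputed labels. With the replicate block 0 members were called for NIH vein minus femoral artery, stenotic branch minus femoral artery or any difference.

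Some named differences turned direction. For Rpl13a, NIH vein minus venous-flow vein became 0.11 in the value table, 0.56 without the pair of arrays and 0.50 in the value table without them, stenotic branch minus venous-flow vein 1.93, 0.70 and 0.62, and stenotic branch minus femoral artery 1.35, 1.09 and 1.35. NIH vein minus the other 12 became 0.53 for Rpl13a without the pair in either form. For Rps27a, NIH vein minus venous-flow vein became 0.82, 0.49 and 1.25 in these settings, and stenotic branch minus venous-flow vein 1.95 and 1.07 in the value table with and without them. In the same value table settings, Eif4a1 probe 1 became -0.65 and -0.33 for stenotic branch minus venous-flow vein, Rps15a -0.037 and -0.14 (and 0.17 without the pair) for stenotic branch minus NIH vein, Rpl10a -0.94 and -0.76 and Rpl23 1.23 and 0.34 for femoral artery minus venous-flow vein, and Rps18 0.34 and 0.34 for stenotic branch minus femoral artery. In the value table Rps2 probe 2 became 0.22 and Rpl23 0.93 for stenotic branch minus NIH vein, and Rps12 probe 1 became 0.27 for femoral artery minus venous-flow vein without the pair. Leaving out 1 array gave, for Rpl13a, -1.67 to 0.55 (NIH vein minus venous-flow vein), -3.36 to 0.70 (stenotic branch minus venous-flow vein), -2.99 to 1.07 (stenotic branch minus femoral artery) and -1.10 to 1.12 (NIH vein minus the other 12), -1.11 to 0.48 for Rps27a (NIH vein minus venous-flow vein), -2.91 to 0.73 for Rps2 probe 2 and -2.80 to 0.53 for Rpl23 (stenotic branch minus NIH vein), and -0.29 to 0.88 for Rpl18 probe 2 (femoral artery minus venous-flow vein). Of the other named values, 363 kept direction and stayed called or not called, and 32 lost the call, in settings that keep all arrays or leave out both. Most of these 363 were not called in the first place and had no call to lose. The counts therefore do not show that calls were stable. The smallest groups hold 3 arrays, and 28 of 109 members had a mean near the floor.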
